A study of Mus musculus with 10 samples.

Results

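The ventricular septum was compared with the left ventricular free wall in 6 of the 10 one-colour arrays of a mouse heart series, namely the 3 arrays titled as septum and the 3 titled as left ventricle (LV). Hearts of C57BL/6N mice were divided into right ventricle (RV, 4 arrays), LV and septum, and total RNA of each frozen and powdered piece was hybridised to a whole-genome expression array. All groups were untreated pieces of the same strain. The sources used here give no age, and each array stands for a whole piece of wall with all its cell types, so that a larger number of cells of a type and more RNA per cell cannot be told apart. Array numbers pair a septum with an LV array, and pairs 1 and 2 lay on slide 1 and pair 3 on slide 2. All LV arrays sat in 1 column of the slides and all septum arrays in another, so array position and region cannot be told apart. The submitters state that different animals served each experiment without defining an experiment, so whether equal numbers mark pieces of 1 heart is not settled, and a pair here means only arrays of equal number. The p-values therefore measure the spread between these arrays.

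The septum is the wall that both ventricles share. Its cardiomyocytes belong to the working muscle of both chambers, the bundle branches of the conduction system descend along its flanks under the endocardium, and its base is anchored in the fibrous skeleton of the heart, where the valve rings meet and cartilage-like cells lie. The free wall of the LV, in contrast, is covered on its outside by the epicardium, a sheet of mesothelial cells that the septum lacks over most of its surface.

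Between 53.7 and 63.2% of probes per array were well above background on the 6 arrays, and the number of arrays limits the precision. Each value below is a log2 signal from which the array's own 75th percentile was subtracted, which makes a probe comparable across arrays but not with other probes. Differences are septum minus LV on the log2 scale, estimated with their standard errors (SE) by a linear model (limma) over all 10 arrays with the slide as a block. Transcripts of 4 Y-linked genes (Eif2s3y, Kdm5d, Ddx3y and Uty) were measured in both regions and none was called, while Xist was not well above background throughout any region.

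The pieces were alike in most of their transcripts. Septum and LV arrays of the same number correlated at 0.993 to 0.995 over probes, and those of different numbers at 0.987 to 0.994. Of 30234 probes tested, 14 (0.0463%) passed an adjusted p of 0.05 by limma with Benjamini-Hochberg adjustment, 12 higher (0.0397%) and 2 lower (0.00662%) in the septum. Taking 1 probe for each of 14650 genes, 11 were called (0.0751%), 10 higher (0.0683%) and 1 lower (0.00683%). For 95.8% of probes the 95% interval of the difference lay within 2-fold in both directions. In the same fit, RV and LV differed at 5331 probes (17.6%) and RV and septum at 2643 (8.74%).

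The number of probes called between septum and LV changed with the model. With the replicate number as a fixed block it was 0, with 2242 probes at an unadjusted p below 0.05 against 1945 without the block. Without the slide block it was also 0, and it was 69 when replicate numbers entered as random effects. It was 0 when RV1, RV2, RV4, LV1, LV3 or septum 3 was left out, 1 without LV2, 3 without RV3, 8 without septum 2 and 15 without septum 1. The split into higher and lower calls was 7 and 4 under quantile normalization and 9 and 5 under median scaling. A second reading, by size and overlap, was therefore used beside the calls.

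By that reading, 54 of the 13684 genes well above background on all 6 arrays (0.395%) differed by at least 2-fold with no overlap between the 3 septum and the 3 LV arrays. The septum was higher for 49 of them (0.358%) and lower for 5 (0.0365%). With 3 against 3 arrays an exact two-sided permutation test cannot go below p = 0.1, so no test was made of single genes from this rule. Without the 2-fold limit the groups of 7.39% of all genes did not overlap. In 17 of the 49 and 4 of the 5 the difference was at least 2-fold in every pair. Pair 1 held the largest difference for 30 of the 54 genes, pair 3 for 22 and pair 2 for 2. Across 14633 genes the differences of the pairs correlated at 0.345 to 0.438, as a description over genes whose arrays share slides.

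**Figure D1:**
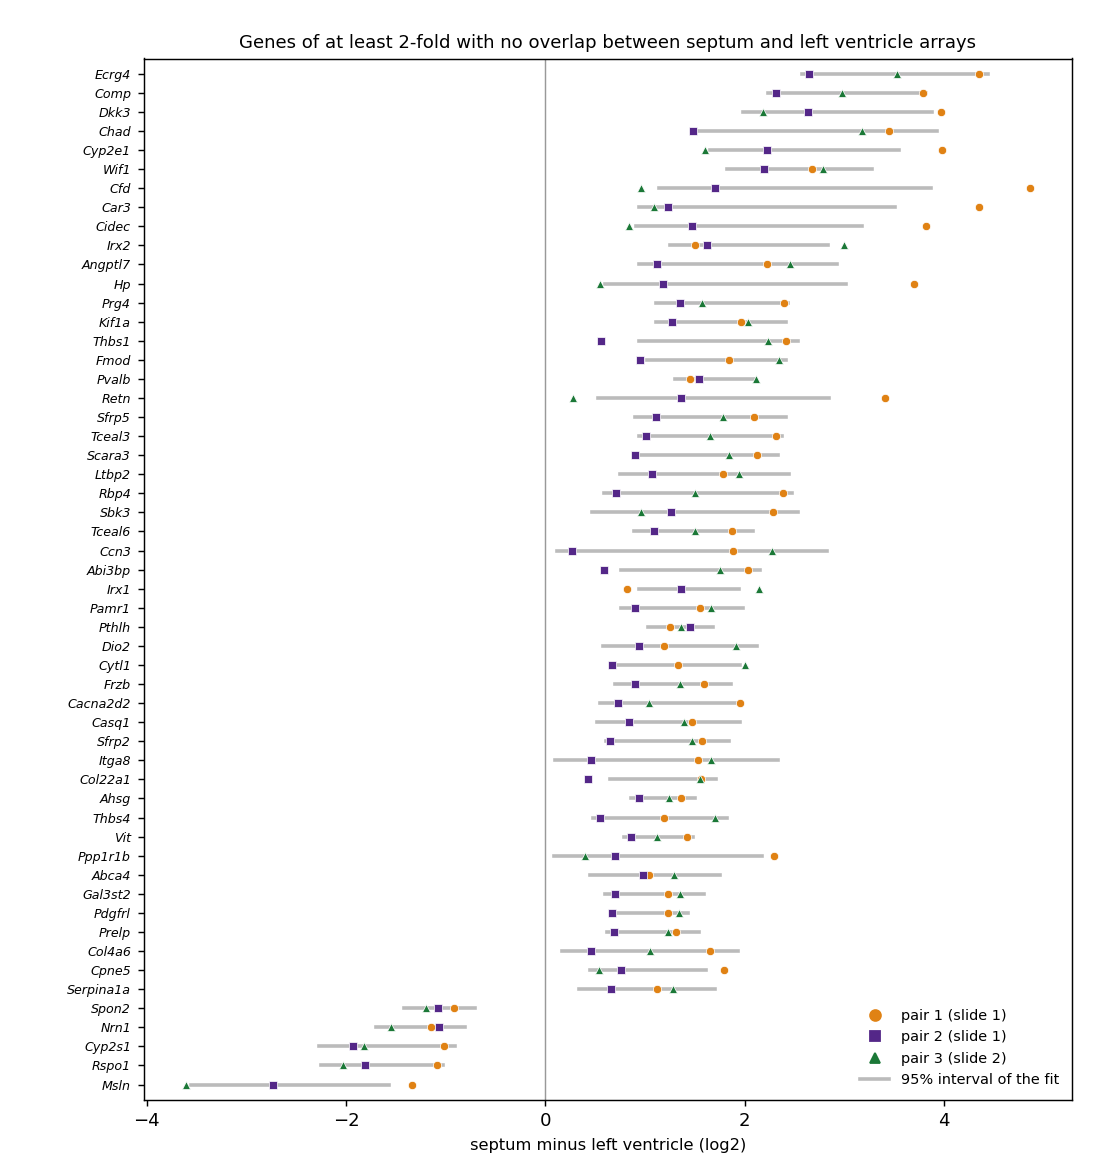
Differences between septum and LV (x axis, log2) for the 54 genes (y axis) of at least 2-fold whose arrays did not overlap. Symbols are the 3 same-numbered pairs and grey bars the 95% interval of the fit over all arrays; 49 genes lie to the right of 0 and 5 to the left, and pair 2 (squares) tends to lie nearest to 0.

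Genes of cartilage, tendon and heart valve formed the clearest group that was higher in the septum. Of 16 tested members of the valve and cartilage matrix list, 3 were called higher (Ucma, Comp and Cnmd) and none lower, against 0.0683% of all genes called higher. The difference was positive for 14 of the 16 and negative for 2. For 10 of the 16 all septum arrays lay above all LV arrays, a pattern that 3.62% of all genes showed. The median difference of the list was 1.25, and that of all 14650 genes -0.02. In pairs 1, 2 and 3 the list's median was 1.46, 0.67 and 1.47. Lists and members were chosen with earlier results of these data known. The counts of this and every later list are therefore descriptions and no test.

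Ucma encodes a small secreted protein of cartilage rich in a modified glutamate. It read -1.54, -2.88 and -1.38 on septum arrays 1 to 3 and -6.48, -5.44 and -4.49 on LV arrays 1 to 3. No LV array was well above background, so only a bound holds, and the septum was at least 3.54-fold higher (adjusted p = 0.0411). With normexp background correction the fitted difference of Ucma was 1.38 (adjusted p = 0.0335). A bound was taken from the means of the normalized log2 values, with the dim probe set on each array to the lowest signal that was well above background there or to its own value where that was higher.

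Comp, a pentameric matrix protein of cartilage and tendon, read 2.90, 1.78 and 3.43 in the septum and -0.88, -0.53 and 0.45 in the LV. The lowest septum array thus stood above the highest LV array by more than 1 log2 unit, and the difference was 3.02 (SE 0.35, adjusted p = 0.0498). Cnmd (chondromodulin), an inhibitor of vessel growth in cartilage and valves, read -2.66, -2.40 and -2.34 against -3.18, -3.07 and -3.04. Its difference was smaller, 0.63 (SE 0.08, adjusted p = 0.0498), with little spread within either group.

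Other members of the list were as far apart without passing the test. Chad (chondroadherin, a cartilage matrix protein that cells bind) read 0.71, -0.66 and 1.38 in the septum and -2.74, -2.14 and -1.80 in the LV, a difference of 2.70 (SE 0.54, adjusted p = 0.212). Wif1, a secreted inhibitor of Wnt ligands, read 1.41, 0.30 and 1.27 against -1.26, -1.90 and -1.51, a difference of 2.55 (SE 0.32, adjusted p = 0.0538). Both genes showed 2 high septum arrays and a lower septum 2 that still cleared every LV array. Prg4 (lubricin, the lubricant of joint surfaces) differed by 1.77, Fmod (fibromodulin, which binds collagen fibrils) by 1.71, Cytl1 by 1.34 and Scx, the transcription factor of tendon cells, by 0.45, all without overlap. Cilp2 differed by 2.08, with only 1 LV array above background, and Cilp by 1.16 with overlapping groups. Col2a1, the main collagen of cartilage, differed by 0.36 (SE 0.26, adjusted p = 0.882). Members near 0 were Sox9, Col9a1, Mia and Ogn. Their septum and LV means were -0.30 and -0.28, -3.22 and -3.20, -1.73 and -1.75, and 4.59 and 4.51. Acan, Col11a1, Hapln1 and Tnmd, 4 further members, were not well above background throughout any region and were not tested.

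The promoters of Ucma and Chad, a called and an uncalled cartilage gene with large differences, are shown for sequence context. They come from RefSeq on build GRCm38.p6, which held a promoter for 11 of the 13 called genes, and run 5′ to 3′ on the gene's strand from 250 bases before to 50 bases after the start. Capitals mark a match on either strand to TATAAA (the TATA box, in 13.6% of 32851 promoters), ACAATG (letters that SOX factors bind, 12.6%), AGGTGT (letters of T-box sites, 13.7%) or ACANNTGT (letters of Iroquois sites, 7.38%), and a match to ACANNTGT can contain AGGTGT. Ucma lies at chr2:4975872-4976171 and Chad at chr11:94564797-94565096, both on the plus strand.
Ucma: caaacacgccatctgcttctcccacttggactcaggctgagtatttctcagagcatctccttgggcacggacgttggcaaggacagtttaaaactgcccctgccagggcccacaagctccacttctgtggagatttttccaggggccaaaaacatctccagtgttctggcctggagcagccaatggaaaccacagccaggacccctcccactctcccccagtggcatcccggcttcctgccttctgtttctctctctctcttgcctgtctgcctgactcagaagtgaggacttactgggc
Chad: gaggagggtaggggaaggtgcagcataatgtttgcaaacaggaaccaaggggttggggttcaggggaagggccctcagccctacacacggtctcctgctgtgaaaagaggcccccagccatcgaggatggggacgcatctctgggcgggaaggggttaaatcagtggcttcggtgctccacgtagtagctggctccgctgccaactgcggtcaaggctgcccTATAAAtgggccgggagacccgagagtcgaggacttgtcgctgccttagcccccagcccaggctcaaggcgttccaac
Chad held TATAAA 28 bases before its start, and the window of Ucma held none of the 4 motifs. The share of G and C was 56.0% for Ucma and 61.0% for Chad, against a median of 52.7% over all promoters. A match is a description of letters only.

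Genes outside the list shared this pattern. Ecrg4, which encodes a secreted peptide precursor, read 1.51, 0.51 and 1.73 in the septum and -2.84, -2.13 and -1.81 in the LV, an 11.4-fold difference and the largest among the 54 genes (3.51, SE 0.41, adjusted p = 0.0498). With normexp background correction it was 2.81. Dkk3, a secreted glycoprotein of the Dickkopf family, read 3.71, 2.03 and 2.98 against -0.26, -0.61 and 0.79, a difference of 2.93 (SE 0.42, adjusted p = 0.0742). Angptl7, a secreted angiopoietin-like protein, differed by 1.93 (SE 0.43, adjusted p = 0.273). Pthlh, the parathyroid hormone-related peptide that regulates growing cartilage, read -1.49, -1.66 and -1.15 against -2.74, -3.11 and -2.52, and its difference of 1.36 passed the test (SE 0.14, adjusted p = 0.0411). Six2, a homeobox transcription factor, was called as well (adjusted p = 0.0411), but only 2 septum arrays and no LV array were well above background, so no fold is given, and its call was lost with normexp background correction (adjusted p = 0.226).

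For 15 genes all septum arrays rose above background while none of the gene's probes did so on any LV array, and the largest bounds belonged to Spp1 (osteopontin, a matrix protein of bone and of injured tissue; at least 7.94-fold, adjusted p = 0.318), Chil1 (a chitinase-like secreted protein; at least 4.74-fold, adjusted p = 0.123), Tmem163 (a zinc transporter; at least 3.60-fold, adjusted p = 0.681), Ucma and Pappa2 (a protease of growth factor binding proteins; at least 3.27-fold, adjusted p = 0.123). Spp1 read -0.41, -1.51 and -0.39 in the septum and -4.59, -4.39 and -4.37 in the LV. The bounds hold for group means and not for single arrays. Tmem163 was uneven, at -0.43, -3.38 and -1.93 in the septum, and its fitted difference of 2.88 was 2.02 without septum 1. Epyc (epiphycan, a cartilage proteoglycan) had a bound of 2.54-fold and Col8a2 of 3.11-fold. In the other direction Bhlha15, a transcription factor of secretory cells, was at least 2.76-fold higher in the LV (adjusted p = 0.339). Such genes thus numbered 15 and 1 of the 14650 tested. Detection was unequal, with 63.2, 59.3 and 54.2% of probes well above background on septum arrays 1 to 3. On LV arrays 1 to 3 it was 62.3, 53.7 and 53.7%. The part of this inequality in the counts was not tested.

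**Figure D2:**
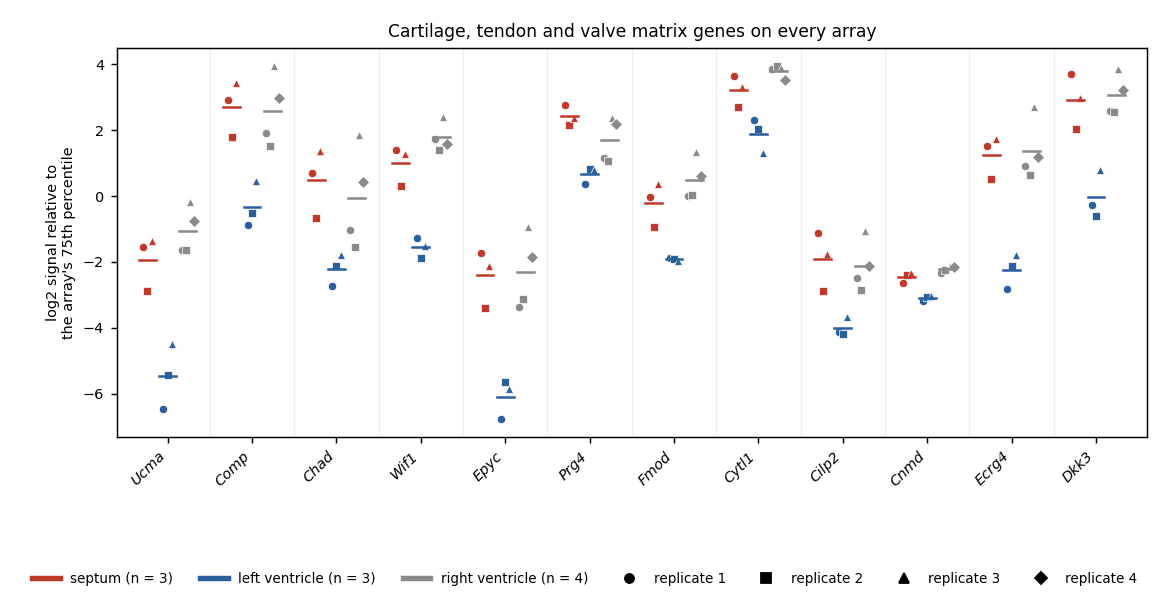
Log2 signal relative to each array's 75th percentile (y axis) for 12 cartilage, tendon and valve matrix genes or genes that shared their pattern (x axis), with 1 symbol per array and a bar at the mean of each region. The septum arrays (red) lie above the LV arrays (blue) for each gene drawn, and for Comp the RV mean (grey, 2.59) lies near the septum mean (2.70).

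The RV mean lay near the septum mean for several of these genes. Comp had a mean of 2.59 in the RV and 2.70 in the septum, and septum minus RV was 0.35 (SE 0.33, adjusted p = 0.545). For Ecrg4 septum minus RV was 0.04 (SE 0.38, adjusted p = 0.964), and for Dkk3 -0.02 (SE 0.39, adjusted p = 0.981). Of the 49 genes higher in the septum than in the LV, 34 were also called higher in the RV than in the LV, 7 were called higher in the septum than in the RV and 7 lower. Over all probes, 17.6% were called between RV and LV and 8.74% between RV and septum, in either direction. The 49 genes were picked for lying above the same LV arrays, which favours the count of 34. These comparisons share arrays and are given side by side only.

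Wound and scar matrix genes were higher in the septum by a smaller amount. All 18 tested members had a positive difference, for 10 of them without overlap (against 3.62% of all genes), their median was 0.57, and none was called. Thbs1 (thrombospondin 1) read 0.07, -1.09 and 0.50 in the septum and -2.35, -1.64 and -1.73 in the LV, a difference of 1.73 (SE 0.35, adjusted p = 0.212). Ltbp2, which lies on elastic fibres, differed by 1.6 (SE 0.37, adjusted p = 0.296), Fn1 (fibronectin) by 0.71 and Postn (periostin, of activated fibroblasts and valve cells) by 0.63. The general fibroblast markers moved less, with 16 of 18 higher, 2 without overlap (against 3.62% of all genes) and a median of 0.17. Col1a1 read 2.50, 2.33 and 3.0 against 1.5, 2.09 and 2.30, a difference of 0.64 (SE 0.28, adjusted p = 0.769). The median of the wound matrix list was 0.29 without LV3 and 0.33 without septum 1, and that of the fibroblast list 0.07 without LV3 and 0.27 without septum 3. The summed signal of the fibroblast list was 604 to 626 times the arrays' 75th percentile in the septum and 509 to 568 in the LV. Its part in the matrix results was not tested.

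Further secreted modulators of Wnt signalling are given as values only, since they were picked after these were seen and none was called. Sfrp5 differed by 1.66 (SE 0.33, adjusted p = 0.212), Frzb by 1.28 (SE 0.25, adjusted p = 0.212) and Sfrp2 by 1.23 (SE 0.27, adjusted p = 0.266), none of them with overlapping groups. Wnt9b, a ligand made by valve endothelium in the embryo, read -1.38, -1.53 and -2.04 in the septum and -2.78, -3.04 and -3.49 in the LV, where 2 arrays were well above background, a difference of 1.46 (SE 0.20, adjusted p = 0.0742). Endocardial markers were higher for 5 of 5 tested members with a median of 0.35, among them Plvap (0.35, SE 0.07) and Vwf (0.47, SE 0.11), both with overlapping groups and neither called.

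Genes of the conduction system were a further group that was higher in the septum. Of 21 tested members, 2 were called higher (Cntn2 and Cacna1g), against 0.0683% of all genes. A positive difference was found for 17, and for 11 the septum arrays all lay above the LV arrays, against 3.62% of all genes, while none lay apart in the other direction. The median of the list was 0.29, and 0.48, 0.17 and 0.37 in pairs 1, 2 and 3. Without septum 3 it was 0.49. This list too was chosen with earlier results of these data known, so its counts describe it and do not test it.

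Cntn2 (contactin 2) is a cell adhesion molecule that marks Purkinje fibres, the fast-conducting cells of the bundle branches and their network. It read -0.31, -1.06 and -0.45 in the septum and -2.92, -3.41 and -4.14 in the LV, where 1 of 3 arrays was well above background. The groups were more than 1 log2 unit apart and the difference was 2.88 (SE 0.28, adjusted p = 0.0411). It was 1.89 with normexp background correction, and its adjusted p lay between 0.00608 and 0.371 over the alternatives. The RV mean was -2.63, and septum minus RV was 1.97 (SE 0.27, adjusted p = 0.00462). Cntn2 thus differed from both free walls.

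The Cntn2 promoter, for comparison with the cartilage genes, covers the same window at chr1:132542891-132543190 on the minus strand (RefSeq, GRCm38.p6).
Cntn2: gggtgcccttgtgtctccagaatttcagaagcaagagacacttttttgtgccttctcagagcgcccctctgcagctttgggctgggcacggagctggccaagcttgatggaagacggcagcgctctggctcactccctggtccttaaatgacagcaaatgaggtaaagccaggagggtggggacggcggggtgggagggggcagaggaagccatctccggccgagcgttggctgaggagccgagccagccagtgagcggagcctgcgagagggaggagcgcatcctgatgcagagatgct
It held none of the 4 motifs searched and had 61.3% G and C.

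Cacna1g encodes a T-type calcium channel of pacemaking and conducting cells. It read 0.26, 0.14 and 0.49 in the septum and -0.51, -0.43 and -0.29 in the LV, with a difference of 0.71 (SE 0.06, adjusted p = 0.0383), the lowest adjusted p of all probes together with that of a probe of Nfasc. Its other 2 probes differed by 0.90 and 0.58, with adjusted p = 0.155 and 0.112. Septum minus RV was 0.52 (SE 0.06, adjusted p = 0.0022).

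Several other conduction genes lay apart without being called. Cacna2d2, an auxiliary calcium channel subunit, differed by 1.24 (SE 0.31, adjusted p = 0.346), with septum 1 at 0.41 well above septum 2 and 3 at -0.89 and -0.78. Cpne5 differed by 1.03 (SE 0.26), Kcne1, a potassium channel subunit, by 0.96 (SE 0.30), and Scn10a, a sodium channel, by 0.77 (SE 0.24). Etv1, a transcription factor of fast-conducting muscle, read 2.13, 1.83 and 2.29 against 1.58, 1.39 and 1.42, a difference of 0.62 (SE 0.12, adjusted p = 0.192). Gja5 (connexin 40, the gap junction protein of Purkinje fibres, also made by arterial endothelium) differed by 0.57 (SE 0.13, adjusted p = 0.289), and the pacemaker channel gene Hcn4 by 0.29 (SE 0.10, adjusted p = 0.610). Id2 differed by 0.23 without overlap, and Bmp2 by 0.61 and Tbx3, a repressor of working-muscle genes in conduction tissue, by 0.22 with overlap. Sema3a was well above background on 1 of the 6 arrays, so no difference is given. Against the RV the other genes named here were split. Septum minus RV was 1.16 for Cacna2d2, 1.15 for Cpne5 and 0.726 for Tbx3 (adjusted p = 0.0445, 0.0242 and 0.00373). It was 0.478 for Gja5 and 0.333 for Hcn4, neither called. It was 0.0149 for Kcne1, -0.00402 for Etv1, -0.0329 for Bmp2 and -0.604 for Scn10a, none called. For Id2 septum minus RV was -0.997 (adjusted p = 0.000426).

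Further members lay close to 0. Gjc1 differed by 0.09, Rgs6 by 0.08, Tbx5 by 0.06, Shox2 by 0.13, Gjd3 by -0.05 and Irx3 by -0.15. Shox2 was -0.50 without septum 1, which read -1.83 where septum 2 and 3 read -3.55 and -3.75.

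Pvalb (parvalbumin, a calcium-binding protein of fast skeletal muscle and certain neurons) was on no list and, like Cntn2, was higher in the septum than in both free walls. It read -0.25, -0.44 and 0.03 in the septum, -1.71, -1.98 and -2.09 in the LV, and had a mean of -2.05 in the RV. Septum minus LV was 1.70 (SE 0.18, adjusted p = 0.0411) and septum minus RV 1.80 (SE 0.17, adjusted p = 0.000818). The pairs gave 1.45, 1.54 and 2.11.

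Iroquois genes, homeobox transcription factors that pattern the ventricles and the conduction system, split into groups. Irx1 read 1.39, 1.87 and 2.25 in the septum and 0.57, 0.51 and 0.10 in the LV, a difference of 1.44 (SE 0.22, adjusted p = 0.106). Irx2 read -0.36, -0.22 and 0.16 against -1.87, -1.84 and -2.83, a difference of 2.04 (SE 0.35, adjusted p = 0.139). Neither passed the test against the LV, and in both genes every septum array lay above every LV array.

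Against the RV both passed the test. Septum minus RV was 2.73 for Irx1 (SE 0.21, adjusted p = 0.000403) and 2.87 for Irx2 (SE 0.33, adjusted p = 0.0022). Irx1 was also called lower in the RV than in the LV (-1.29, SE 0.21, adjusted p = 0.00642), so its order was septum, LV, RV, although the first step did not pass the test. For Irx2 RV minus LV was -0.83 (SE 0.33, adjusted p = 0.117). Irx3 differed between septum and LV by -0.15 (SE 0.09), Irx4, the ventricular member, by -0.10 (SE 0.07) and Irx5 by 0.27 (SE 0.15), all with overlapping groups and adjusted p of 0.839 to 0.887. Irx6 was not well above background throughout any region.

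**Figure D3:**
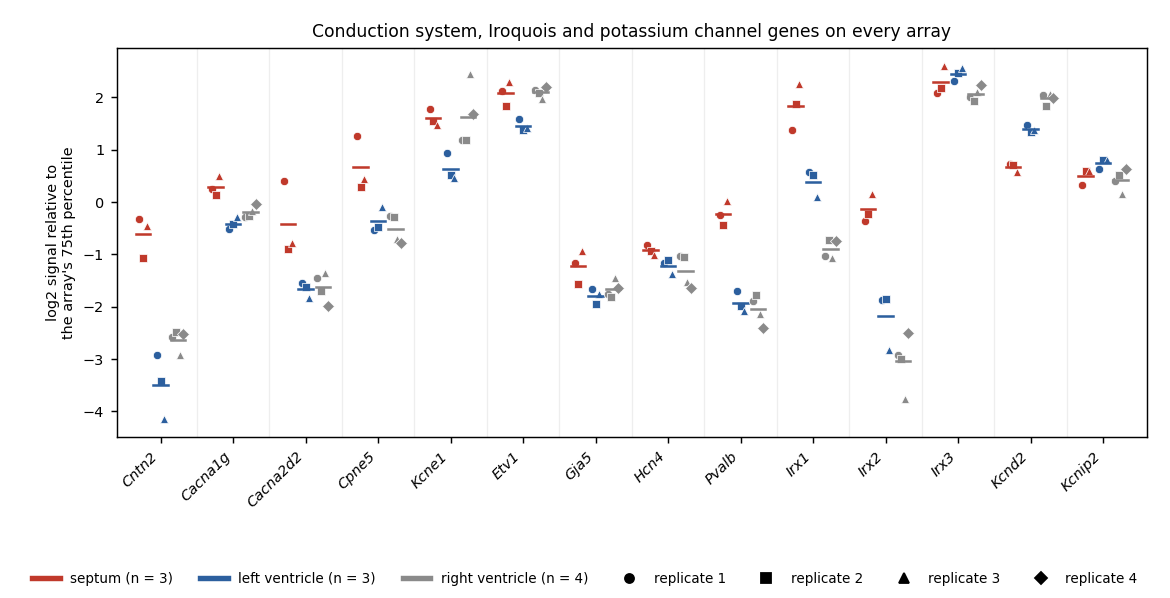
Log2 signal relative to each array's 75th percentile (y axis) for 14 genes of conduction, of the Iroquois family and of potassium channels, with Pvalb (x axis), 1 symbol per array and a bar at the mean of each region. Cntn2, Pvalb, Irx1 and Irx2 are higher in the septum (red) than in both free walls. Kcnd2 is lower in the septum than in both, with means of 0.67 in the septum, 1.4 in the LV and 1.99 in the RV.

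Kcnd2 encodes Kv4.2, the pore of the fast transient outward potassium current that shortens the action potential, and was the clearest gene that was lower in the septum. It read 0.73, 0.72 and 0.57 in the septum, 1.48, 1.34 and 1.38 in the LV, and had a mean of 1.99 in the RV. Septum minus LV was -0.73 (SE 0.08, adjusted p = 0.0411), the pairs gave -0.75, -0.62 and -0.81, and septum minus RV was -1.32 (SE 0.08, adjusted p = 0.000163). Among 17 tested potassium channel genes it was the only one called. Kcnip2, the subunit that joins Kv4.2 in this current, read 0.32, 0.59 and 0.59 against 0.64, 0.80 and 0.81, a difference of -0.25 (SE 0.13, adjusted p = 0.833). Kcnk2 differed by -0.58 with overlapping groups, and the median of the list was -0.04.

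The Kcnd2 promoter is given as that of a gene with the opposite direction and lies at chr6:21215096-21215395 on the plus strand (RefSeq, GRCm38.p6).
Kcnd2: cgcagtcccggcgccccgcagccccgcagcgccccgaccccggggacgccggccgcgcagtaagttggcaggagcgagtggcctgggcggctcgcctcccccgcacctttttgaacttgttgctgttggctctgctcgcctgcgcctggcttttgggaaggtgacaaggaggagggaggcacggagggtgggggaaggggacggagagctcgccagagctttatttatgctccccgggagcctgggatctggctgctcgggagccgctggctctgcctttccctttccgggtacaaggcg
It held none of the 4 motifs searched and had 68.7% G and C.

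Il17re, an interleukin-17 receptor subunit of epithelial cells, was the other lower call, at -0.80 (SE 0.09, adjusted p = 0.0411) on the dimmer of its 2 probes. The brighter probe gave -0.68 (SE 0.09, adjusted p = 0.0659). Nfasc, an adhesion molecule of nerve, was called higher by 0.67 on a dimmer probe (adjusted p = 0.0383), with 1 LV array well above background and overlapping groups, whereas its brightest probe gave -0.09 (SE 0.11, adjusted p = 0.946). Of 16 named genes with several tested probes, Nfasc alone had probes of opposite sign. Ahsg (fetuin A, a plasma protein that inhibits calcification) read 1.98, 1.42 and 1.09 in the septum and 0.62, 0.48 and -0.15 in the LV, a difference of 1.18 (SE 0.14, adjusted p = 0.0498), and had its highest mean, 2.25, in the RV. The remaining call, 1.37 (SE 0.16, adjusted p = 0.0498), was a probe whose transcript identifier matched no gene symbol in RefSeq.

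Mesothelial genes were lower in the septum throughout. All 14 tested members had a negative difference, 6 of them without overlap, against 3.77% of all genes, and the median was -1.17. None was called. The median was -0.61 after normexp background correction and -0.71 over probes well above background on all 10 arrays. The pairs gave medians of -0.60, -1.60 and -1.43. The summed signal of the list was 3.32 to 6.35 in the septum, 7.87 to 12.6 in the LV and 14.0 to 36.3 in the RV, so the 3 regions did not overlap.

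Msln (mesothelin, a surface protein of mesothelial cells) had the largest decrease of all genes tested. It read 0.66, -0.50 and -2.46 in the septum and 1.99, 2.24 and 1.14 in the LV, a difference of -2.56 (SE 0.43, adjusted p = 0.139). Rspo1 (R-spondin 1, an activator of Wnt signalling made by the epicardium) read -1.22, -2.0 and -3.10 against -0.14, -0.19 and -1.07, a difference of -1.64 (SE 0.27, adjusted p = 0.125). In both genes septum 1 was the highest and septum 3 the lowest septum array, and all lay below the LV.

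Krt19, a keratin, differed by -2.08 (SE 0.46, adjusted p = 0.266), with 2 septum arrays well above background. Lrrn4 and Upk3b differed by -2.32 and -2.07 with overlapping groups, and by -1.59 without septum 2 and -1.43 without septum 3, respectively. Aldh1a2, the enzyme of retinoic acid synthesis in the epicardium, read -0.43, 0.15 and -0.46 against 0.35, 0.79 and 0.19, a difference of -0.69 (SE 0.20, adjusted p = 0.470). Wt1, the epicardial transcription factor that some endothelial cells also express, differed by -0.32 (SE 0.20, adjusted p = 0.871). Against the RV the test was passed, with septum minus RV of -4.21 for Msln (SE 0.41, adjusted p = 0.00113) and -3.31 for Rspo1 (SE 0.25, adjusted p = 0.000403).

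The other 3 genes that were lower by at least 2-fold without overlap were Cyp2s1, Nrn1 and Spon2. Cyp2s1, an epithelial cytochrome P450, read -1.03, -1.80 and -2.56 in the septum and -0.02, 0.14 and -0.74 in the LV (-1.59, SE 0.30, adjusted p = 0.189). Spon2, a secreted matrix protein, read -2.34, -2.14 and -2.47 against -1.42, -1.07 and -1.28 (-1.06, SE 0.16, adjusted p = 0.0856). Both were highest in the RV, as the mesothelial genes were.

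Nrn1 (neuritin, a membrane-anchored protein of neurons that promotes outgrowth) had another order. It read 0.31, -0.13 and -0.15 in the septum and 1.46, 0.94 and 1.4 in the LV, a difference of -1.26 (SE 0.20, adjusted p = 0.112), and had a mean of -1.82 in the RV. Septum minus RV was 1.82 (SE 0.19, adjusted p = 0.00134) and RV minus LV -3.07 (SE 0.19, adjusted p = 0.000469). The septum thus stood between the free walls.

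Fat cell genes went both ways but by unequal amounts, with differences from -0.12 to 2.51 over the list. Of 17 tested members of the adipocyte list 8 were higher and 9 lower in the septum, 6 lay apart with the septum higher (against 3.62% of all genes) and 1 with the septum lower (against 3.77% of all genes), none was called, and the median was -0.03, with single-array omissions moving it between -0.08 and 0.06. Cfd (adipsin, a complement protease that fat cells secrete) read 3.16, 1.4 and 1.30 in the septum and -1.70, -0.30 and 0.33 in the LV, a difference of 2.51 (SE 0.60, adjusted p = 0.326). Car3, Cidec and Retn differed by 2.23, 2.05 and 1.68 (adjusted p = 0.369, 0.333 and 0.507), and Adipoq (adiponectin), not well above background on any LV array, was at least 2.85-fold higher (adjusted p = 0.399). Septum 1 was the highest septum array for each of these 5 genes. Without septum 1 the difference of Cfd was 1.81, of Car3 1.45 and of Cidec 1.46. All 5 had their highest mean in the RV, where Cfd had a mean of 4.22 and septum minus RV was -2.23 (SE 0.56, adjusted p = 0.0463).

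Cyp2e1, a cytochrome P450 of liver and fat, read 1.47, 0.35 and 0.63 in the septum and -2.51, -1.87 and -0.97 in the LV (2.60, SE 0.42, adjusted p = 0.123). Hp (haptoglobin, which binds free haemoglobin) read 1.49, -0.12 and -0.13 against -2.21, -1.30 and -0.68 (1.81, SE 0.53, adjusted p = 0.497), and its difference was 1.18 without septum 1. In pair 3 the difference of Hp was 0.55, against 3.70 in pair 1. Of 16 complement genes 8 were higher and 8 lower, and the median was 0.01. Beside Cfd, C2 differed by -1.22 (SE 0.26, adjusted p = 0.240) and C3, the central component, by -0.46 (SE 0.17, adjusted p = 0.698), both with overlapping groups.

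Atrial muscle transcripts varied between arrays within both groups. Myl4 (atrial light chain 1) read 7.71, 5.63 and 3.70 in the septum and 4.31, 2.23 and 4.34 in the LV. Myl7, the other atrial light chain, read 6.90, 4.6 and 2.69 against 3.48, 1.14 and 3.76, and Sln (sarcolipin, an inhibitor of the calcium pump in atrial muscle) read 6.21, 4.14 and 0.49 against 2.87, -0.15 and 2.37. Septum 1 and 2 were the high arrays, and septum 3 lay below LV1 and LV3. The differences of 2.05, 1.94 and 1.91 had SE of 1.07 to 1.38 and adjusted p of 0.833 to 0.883, and rose to 3.05, 3.01 and 3.37 without septum 3. The summed signal of the 9 tested atrial genes was 127 to 603 in the septum and 119 to 169 in the LV. The part of atrial, fat and mesothelial tissue in the other results was not tested.

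**Figure D4:**
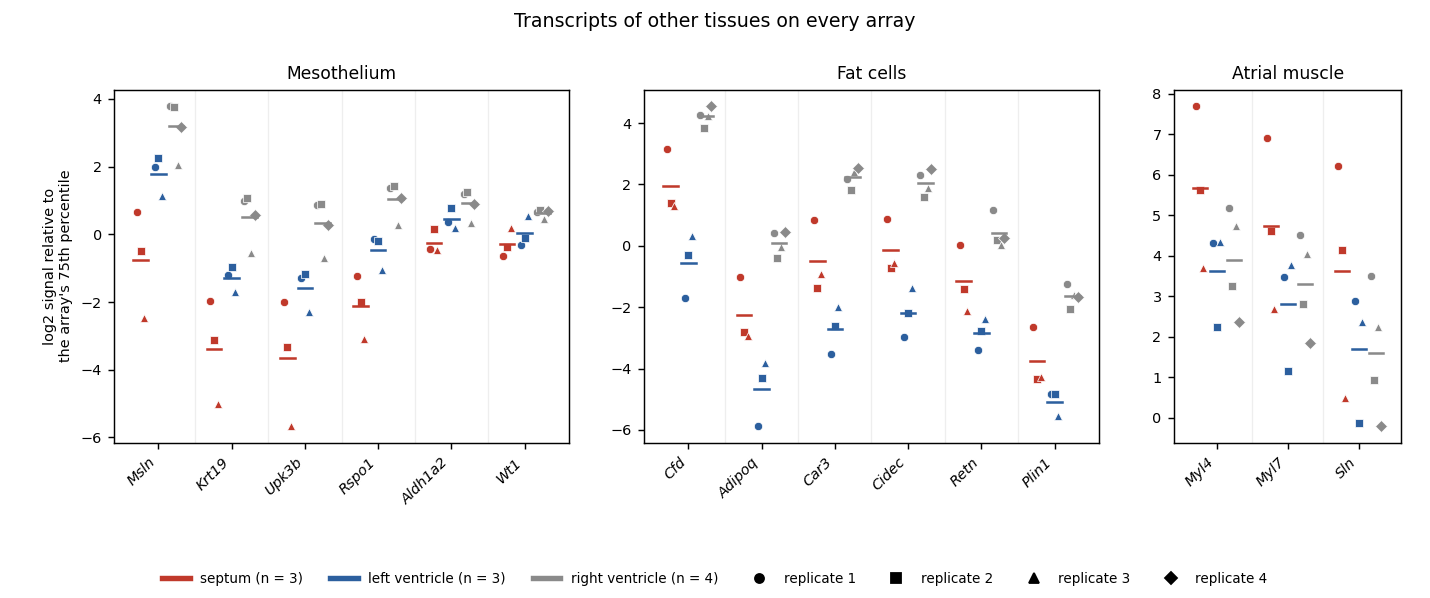
Log2 signal relative to each array's 75th percentile (y axis, a scale per panel) for markers of mesothelium, fat cells and atrial muscle (x axis), with 1 symbol per array and a bar at the mean of each region. Msln falls from the RV over the LV to the septum. The fat cell genes drawn are highest in the RV and lowest in the LV. Over the whole list of 17 tested genes, 8 were higher and 9 lower in the septum than in the LV. The atrial genes spread over several log2 units within each region, and septum 1 is the highest array for all 3 drawn.

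Nerve-related genes gave both directions. Dbh and Ddc, enzymes of catecholamine synthesis, were higher in the septum by 0.97 (SE 0.21, adjusted p = 0.250) and 0.78 (SE 0.17, adjusted p = 0.265) without overlap, as was S100b by 0.56. Dbh read 2.52, 2.13 and 2.04 in the septum and 1.77, 1.20 and 0.81 in the LV. Sox10, the transcription factor of Schwann cells, read -1.75, -1.98 and -1.95 against -1.64, 0.02 and -1.26, where LV2 stood apart, and differed by -0.93 (SE 0.35, adjusted p = 0.695), or -0.43 without LV2. Mbp, a myelin protein, differed by -0.50. None of the 10 tested members was called, 3 were higher and 7 lower, and the median was -0.06. All 3 higher members lay without overlap (against 3.62% of all genes), as did 1 lower member, Sox10 (against 3.77% of all genes).

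The working muscle itself differed little. Of 20 sarcomere genes 18 had a lower value in the septum, 1 of them without overlap (against 3.77% of all genes). The list's median of -0.06 became 0.01 under quantile normalization and -0.13 under median scaling. Myh6, the main myosin heavy chain of the adult mouse heart, differed by -0.10 (SE 0.07, adjusted p = 0.874) and Ldb3 by -0.13. Myh7, the slow myosin heavy chain that load induces, read 5.58, 3.99 and 5.62 in the septum and 4.63, 3.33 and 4.12 in the LV, a difference of 1.03 (SE 0.45, adjusted p = 0.776). Each septum array was above its own LV partner, while the groups overlapped because both arrays of pair 2 were low. Nppb, the load-induced natriuretic peptide, differed by -0.23 (SE 0.43), and pair 3 read high in both regions, at 7.33 and 7.57. The load response list had a median of 0.08, and the calcium cycling list one of -0.07.

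Energy metabolism and blood lists had small shifts to the lower side. All 19 glycolysis genes had a negative difference, 5 of them without overlap (against 3.77% of all genes), with a median of -0.12 that was -0.07 under quantile normalization and -0.19 under median scaling. Slc2a4 (the insulin-regulated glucose transporter GLUT4) read 6.98, 7.11 and 7.12 in the septum and 7.17, 7.31 and 7.29 in the LV, a difference of -0.18 (SE 0.08, adjusted p = 0.743). All 17 respiratory chain genes were lower as well, with a median of -0.07 and Sdhb at -0.14, and 18 of 22 fatty acid oxidation genes, with a median of -0.05. The 7 blood genes were all lower with a median of -0.29, among them Hba-a1 (-0.29, SE 0.15) and Alas2, the first enzyme of haem synthesis in red cells (-0.44, SE 0.21). None of these genes was called, and 8520 of all 14650 genes had a negative difference.

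The further lists had medians between -0.14 and 0.07 and no called member. Interferon response genes had a median of -0.08 (1 of 17 higher, Irf7 at -0.23), heat shock genes -0.09 (3 of 14 higher, Bag3 at -0.26) and cardiac transcription factors -0.08 (5 of 21 higher, Tbx18 at 0.22 without overlap). The medians were 0.04 for immediate early genes, 0.01 for clock genes, 0.07 for MHC class II genes, -0.03 for endothelium, -0.03 for arterial endothelium, -0.05 for lymphatic endothelium, -0.02 for smooth muscle and pericytes, -0.02 for macrophages, 0.02 for neutrophils and -0.03 for lymphocytes. Among their members Reln differed by -0.32 and Fbln5 by 0.45, both without overlap. The brown fat list had 3 tested members, a median of -0.14 and Dio2, the enzyme that activates thyroid hormone, at 1.35 without overlap, while Ucp1 was not well above background throughout any region.

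**Figure D5:**
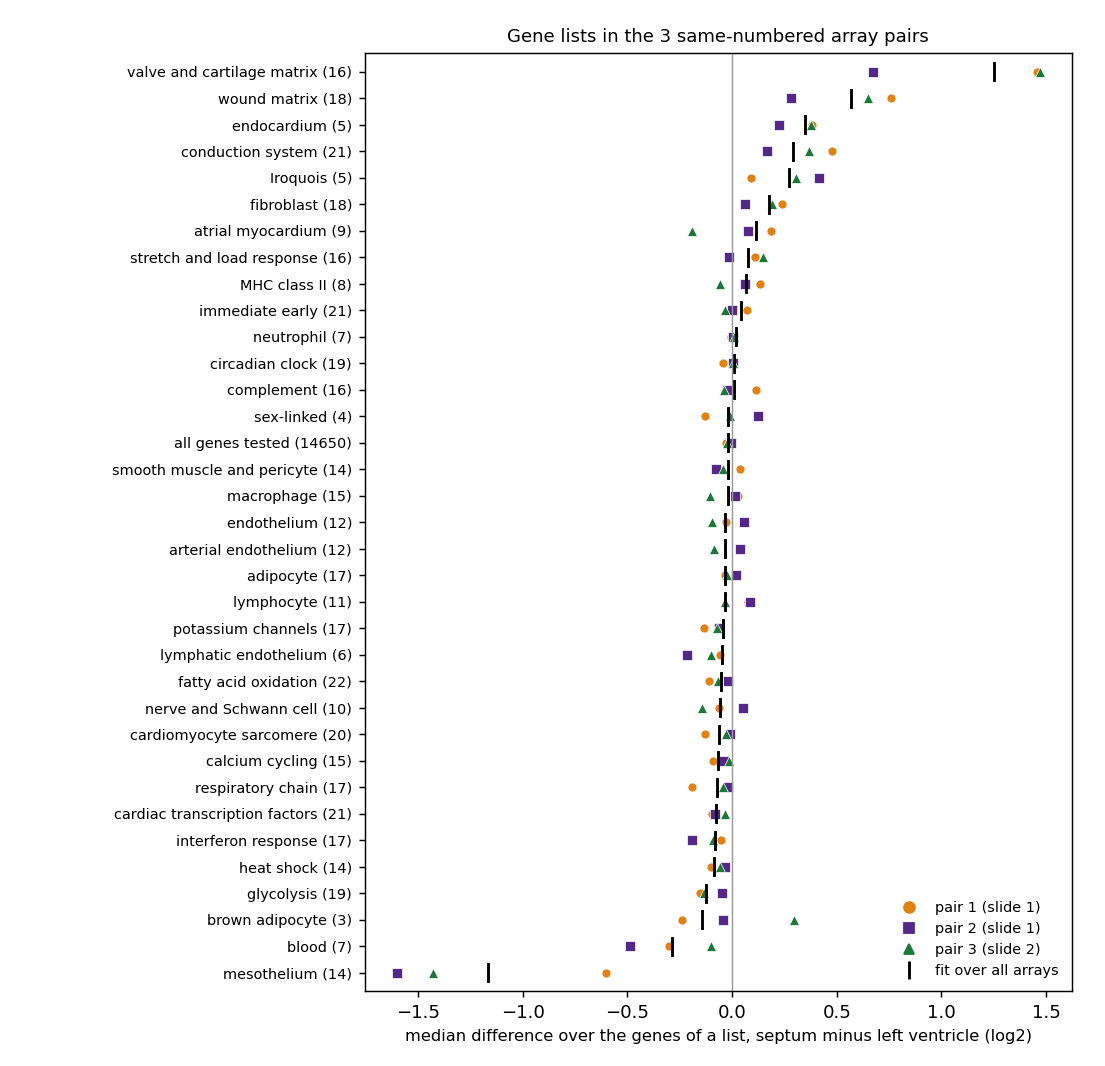
Median difference between septum and LV (x axis, log2) over the tested genes of each list (y axis, number of genes in brackets) in each of the 3 same-numbered pairs (symbols) and in the fit over all arrays (black bars). Valve and cartilage matrix (1.25), wound matrix (0.57), endocardium (0.35), conduction system (0.29), Iroquois (0.27) and fibroblast (0.17) lie right of 0 in every pair. Mesothelium (-1.17) lies to the left in every pair, while most other lists lie near the median of all genes (-0.02).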

How the data were processed

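Total RNA of 10 pieces of heart was labelled with Cy3 and hybridised to SurePrint G3 Mouse 8x60K arrays. The authors scanned the arrays and deposited the output of Agilent Feature Extraction 11.5.1.1 (per the file headers), which holds linear intensities per spot, of which the processed signal is background-subtracted, and a series table of log2 values. The deposited log2 values lay within 0.05 of the values used here, and the probes were annotated on mouse build mm9 per the file headers. Processing in GeneSpring and an analysis of variance with Tukey correction were stated for the study.

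Here the log2 processed signal minus each array's 75th percentile was used. Spots of 1 probe were averaged, control and outlier spots were left out, and a probe was tested if all arrays of 1 or more regions measured it well above background, which left 30234 of 56605 probes (53.4%). Gene symbols were assigned by matching the transcript identifier of a probe to the RefSeq and Ensembl identifiers of RefSeq genes. Of all probes 58.3% received a gene symbol, and a gene was represented by its brightest probe. Region means and the slide (2 slides) were fitted over all 10 arrays with limma 3.58.1 (R 4.3.3), and the contrast septum minus LV was tested two-sided with Benjamini-Hochberg adjustment at 0.05. The code was tested on simulated data.

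Deviations of same-numbered septum and LV arrays from their group means correlated at 0.524, 0.390 and 0.645, and those of other numbers at -0.518 to 0.148. The numbers were therefore used for the pair differences, while the main fit has no term for them. Same-numbered septum and LV arrays also shared a slide and a row of it, so these correlations cannot tell pairing from array position. The pairing comes from this check and the titles, since the labels do not tie a number to a heart. Genes were named where called, where among the 12 largest differences in either direction without overlap and at least 2-fold, where among the 5 largest bounds, or as members of gene lists (conduction and Iroquois genes, otherwise those called or with a large difference or high level). The members and lists were chosen with earlier results of these data known. Alternatives covered the block, the arrays fitted, normalization, background correction, filter, prior, test and each array left out. Normexp background correction used the median signal. A few list members are not reported here.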

Additional observations from a re-analysis of the deposited data

How the results depend on the processing

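The number of probes called between septum and LV was 14, and limma called 0 with the replicate number as a fixed block (2242 at an unadjusted p below 0.05), 0 without the slide block (862), 0 in the septum and LV arrays alone (2180), 0 in those with the replicate block (3415), 0 without a filter (1895), 0 on slide 1 alone (1709) and 1 on slide 2 alone (1952). It called 69 when replicate numbers entered as random effects and 22 with an intensity trend and robust prior. The study's analysis of variance with Tukey correction gave 435 probes without adjustment and 168 after Benjamini-Hochberg adjustment of its p-values. With 1 array left out the count ranged from 0 to 15. Of the 14 probes, 13 were among the 69 of the random effects and 9 among the 168. The cause was not tested. Other scalings, the normexp correction, the series table and the stricter filter gave 11 to 18 calls. The number of genes apart between septum and LV by at least 2-fold was 54, and the count was 189 without a filter and 82 on slide 1, which compares 2 arrays with 2, and 49 to 80 with 1 array left out.

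Directions of named genes held under the alternatives with these exceptions, all of them of uncalled differences. On slide 2, which has 1 array of each region compared, Myl4 was -0.64, Myl7 -1.07, Sln -1.88, Shox2 -0.61, Rgs6 -0.06, Tbx5 -0.076 and Irx3 0.052. Tbx5 was -0.0099 under median scaling. As means of all probes Nfasc was 0.29 and Rgs6 -0.0056. With 1 array left out, Shox2 ranged from -0.50 to 0.55, Tbx5 from -0.062 to 0.13, Rgs6 from -0.032 to 0.21, Gjd3 from -0.15 to 0.0080 and Nppb from -0.47 to 0.027. The Y-linked genes, whose differences lay near 0, changed sign as well, with Ddx3y at -9.2e-05 under quantile normalization, -0.054 under median scaling and -0.11 on slide 2, Uty at -0.017 with normexp and Kdm5d at 0.00029 on slide 2, and with 1 array left out Ddx3y ranged from -0.043 to 0.098 and Kdm5d from -0.099 to 0.015. Over all named genes and alternatives, 2866 values kept direction and side of the threshold, 223 kept direction but were no longer called and 30 were newly called. Dim probes such as those of Ucma, Six2 and Spp1 in the LV give bounds only.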

Other observations

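In 39 genes the septum was at least 2-fold higher, and in 10 at least 2-fold lower, in each of the 3 same-numbered pairs, including genes that were not well above background on every array. In the single pairs 175, 220 and 293 genes passed 2-fold, and 42.2% of all genes had the same sign in every pair. Chosen after its values were seen, Pcp4, a calmodulin-binding protein known from Purkinje neurons and from Purkinje fibres of the heart, differed by 1.58, 2.19 and 3.63 in pairs 1, 2 and 3 (fitted difference 2.46, adjusted p = 0.189 by limma, and 1.86 without septum 3), with 2 of 3 LV arrays well above background. Among the 10 lower genes, also chosen after their values were seen, Nkain4, Prr15l, Lrrn4 and Slc23a3 had fitted differences of -2.11, -1.94, -2.32 and -1.76, with 1 or 2 septum arrays well above background.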
